A study of Homo sapiens with 12 samples.

Results

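The effect of menin inhibition on open chromatin was examined in OCI-AML3, a human acute myeloid leukaemia line that carries mutant NPM1 and an intact MLL1 (KMT2A) gene. Bulk ATAC-Seq had been performed on 4 OCI-AML3 samples of a series of 12 samples from 3 lines, namely 2 controls and 2 samples exposed for 16 h to VTP50469 at 500 nM. This small molecule occupies the pocket of menin in which MLL1 binds. Cells of both groups were cryopreserved before nuclei were isolated, and the labels name no vehicle for the controls. Nothing in the labels says that the libraries of a group came from separate cultures of this line, so each p-value measures the spread between these libraries, which may be technical. The peaks called in each of the 4 libraries on chromosomes 1 to 22 of hg38 were merged wherever they overlapped by at least 1 bp. This gave 156233 regions, each with its presence and its fold enrichment in every library.

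ATAC-Seq uses the Tn5 transposase, which inserts adapters where DNA is not wrapped tightly, so that promoters and enhancers in use appear as peaks of reads. Menin is an adaptor that holds MLL1, a histone H3 lysine 4 methyltransferase, at the promoters of HOXA and HOXB genes, MEIS1 and PBX3. In leukaemia with mutant NPM1 these genes stay expressed as they are in early progenitors, although MLL1 is not rearranged. Inhibitors of menin are known to lower their transcription and to start myeloid differentiation.

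A region is named lost where each control had a peak and the treated libraries had none, and gained where each treated library had a peak and the controls had none. Only 3 of the genes in the lists used here had such a region inside the 300 bases around a start site (250 before and 50 after) in the RefSeq promoter table for GRCh38.p14, which held 163 of the 221 listed genes. Their sequences are given 5′ to 3′ in the direction of transcription, together with those of the strongest lost and the strongest gained region at any such window, with the bases that lay inside the region in capitals. S100A9 encodes a calcium-binding protein of monocytes and granulocytes (plus strand, chr1:153357604-153357903, lost). TCF4 encodes an E protein transcription factor, and the start site shown is 1 of several (minus strand, chr18:55588143-55588442, lost). MECOM encodes a zinc finger regulator of blood stem cells (minus strand, chr3:169147422-169147721, gained). SEMA4B encodes a membrane semaphorin (plus strand, chr15:90184670-90184969, lost), and LINC02725 is a long noncoding RNA gene (plus strand, chr11:128095509-128095808, gained).
S100A9: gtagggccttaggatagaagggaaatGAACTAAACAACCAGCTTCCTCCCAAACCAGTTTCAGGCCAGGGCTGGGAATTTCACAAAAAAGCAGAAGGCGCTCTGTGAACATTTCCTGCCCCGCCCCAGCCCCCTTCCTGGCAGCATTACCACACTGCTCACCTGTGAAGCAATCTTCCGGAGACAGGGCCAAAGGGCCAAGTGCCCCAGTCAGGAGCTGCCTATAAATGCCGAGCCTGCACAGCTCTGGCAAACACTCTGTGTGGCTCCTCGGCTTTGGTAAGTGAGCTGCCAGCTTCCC
TCF4: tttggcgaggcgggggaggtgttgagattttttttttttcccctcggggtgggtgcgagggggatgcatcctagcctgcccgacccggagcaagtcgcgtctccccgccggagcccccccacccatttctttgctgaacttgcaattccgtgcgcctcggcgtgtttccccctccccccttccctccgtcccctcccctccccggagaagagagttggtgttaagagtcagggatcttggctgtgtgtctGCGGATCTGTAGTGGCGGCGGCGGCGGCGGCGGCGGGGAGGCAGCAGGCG
MECOM: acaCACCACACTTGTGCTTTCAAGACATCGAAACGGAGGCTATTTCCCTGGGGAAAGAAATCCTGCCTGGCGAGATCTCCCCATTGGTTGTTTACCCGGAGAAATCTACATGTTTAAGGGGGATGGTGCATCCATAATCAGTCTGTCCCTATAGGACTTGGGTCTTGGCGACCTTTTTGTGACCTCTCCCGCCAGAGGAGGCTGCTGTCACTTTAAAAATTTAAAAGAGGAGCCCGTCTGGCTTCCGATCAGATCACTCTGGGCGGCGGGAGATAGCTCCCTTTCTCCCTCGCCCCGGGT
SEMA4B: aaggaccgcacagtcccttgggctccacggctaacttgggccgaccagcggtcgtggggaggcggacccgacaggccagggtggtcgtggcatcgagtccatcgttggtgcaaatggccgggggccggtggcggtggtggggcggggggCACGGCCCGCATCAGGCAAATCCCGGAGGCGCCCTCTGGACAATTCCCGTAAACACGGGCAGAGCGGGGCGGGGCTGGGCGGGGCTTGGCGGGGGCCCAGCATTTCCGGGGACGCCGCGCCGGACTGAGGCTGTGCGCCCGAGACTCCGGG
LINC02725: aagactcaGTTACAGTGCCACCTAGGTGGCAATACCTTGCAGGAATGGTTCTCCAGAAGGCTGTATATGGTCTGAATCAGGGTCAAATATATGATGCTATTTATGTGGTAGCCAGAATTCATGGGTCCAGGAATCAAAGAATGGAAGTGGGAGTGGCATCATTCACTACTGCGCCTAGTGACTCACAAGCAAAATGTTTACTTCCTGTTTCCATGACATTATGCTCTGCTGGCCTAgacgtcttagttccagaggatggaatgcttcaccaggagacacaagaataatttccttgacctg

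The number of peaks differed more between the controls than between the groups. Control 1 had 69119 peaks and control 2 had 92554, and the treated libraries had 75685 and 67424. The groups thus overlapped, with control 2 above the other 3 (exact permutation test, two-sided, p = 0.667, where 0.33 is the smallest p that 2 against 2 allows). Control 2 also stood apart in that 41.2% of its regions were found in no other library, against 28.9% to 33.7% in the others. Reads over the summit of a peak, recovered from the fold enrichment and the p-value, had a median of 9 in control 2 and of 10 in the other libraries, and the weakest peaks had 4 or 5 reads. Between any pair of libraries, the log2 fold of shared regions correlated with a Pearson r from 0.699 to 0.723, with 0.723 for the controls, 0.708 for the treated libraries and 0.699 to 0.707 for a control with a treated library. These are correlations across regions, which are not independent replicates. As a check of the labelled line, a promoter peak was called in all 4 libraries at 6 of 10 myeloid identity genes, including SPI1, and at 1 of 8 T cell, 0 of 7 B cell and 0 of 8 erythroid marker genes. The other myeloid markers included CD33, MPO and FLI1, which had no promoter peak in any library.

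Most regions were not shared. Of 156233 regions, 97498 (62.4%) were called in 1 library and 30339 (19.4%) in all 4. Lost regions numbered 3957, or 2.53% of all regions, and gained regions 2056, or 1.32%. Regions called in 1 control and 1 treated library, which differ between libraries but not between groups, numbered 10780 over their 4 possible pairs of libraries, with 1438 to 4137 in each pair. The pairs that held control 2 had the most (4137 and 3217), so the 3957 regions of the pair of controls lay inside that range, as did the 2056 regions of the treated pair.

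Lost regions outnumbered gained ones 1.92 to 1. A supplementary figure of the study lists the opposite balance for OCI-AML3, with more differential ATAC-Seq peaks gained than lost. That is another measure than the presence of called peaks used here. When each library was limited to its 67424 strongest peaks, which removed 25130 peaks from control 2 and fewer from control 1 and treated library 1, there were 3140 lost (2.44%) and 2173 gained (1.69%) among 128636 regions, a ratio of 1.45. Of the lost regions 75.5% stayed lost and of the gained 88.3% stayed gained. With the 33702 strongest peaks of each library, a setting added after the data had been seen, 1592 were lost and 1367 gained, a ratio of 1.16. Without the peaks under a −log10 q of 5, 2236 were lost and 1039 gained, a ratio of 2.15, so the ratio went down under one kind of limit and up under the other. The part of control 2 in the excess of lost regions was not tested. The call needs both libraries of a group, and leaving 1 out moves it toward the group that is left with 1: without control 1 or 2 there were 40332 and 22828 lost against 3437 and 5549 gained, and without treated library 1 or 2 there were 7898 and 6745 lost against 20246 and 26118 gained.

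**Figure D1:**
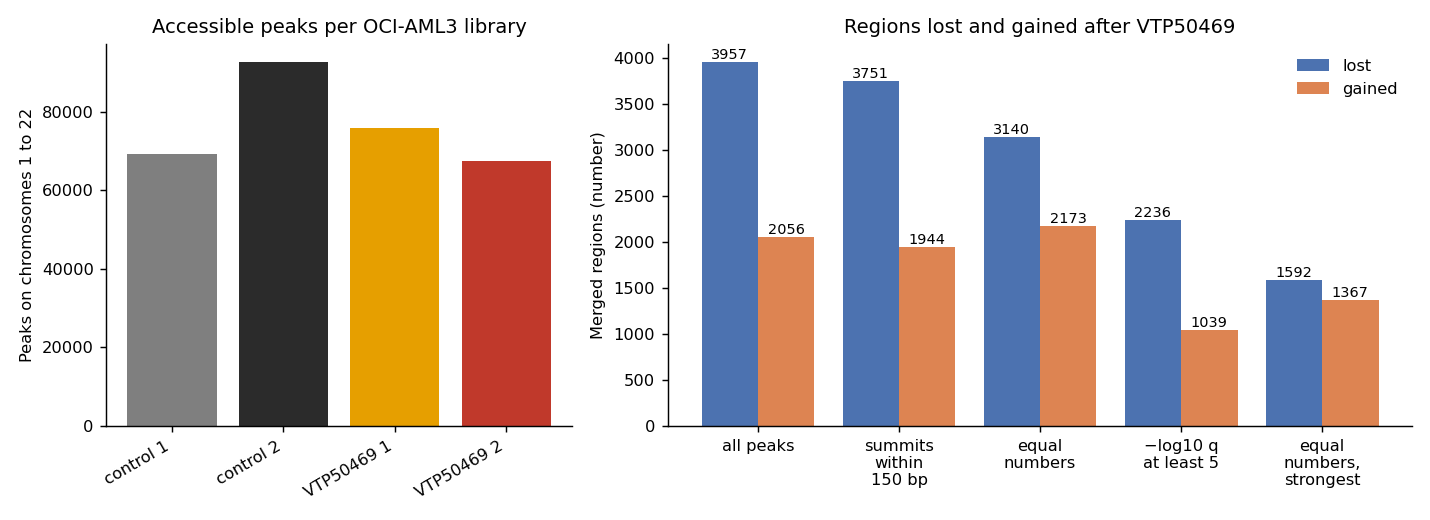
Left, number of peaks on chromosomes 1 to 22 in each OCI-AML3 library. Right, number of merged regions lost and gained after VTP50469 under 5 settings; with equal numbers of peaks per library the counts went from 3957 and 2056 to 3140 and 2173.

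Lost and gained regions were weak peaks, and most lay away from promoters, as did most regions of the whole set. Promoters (RefSeq start sites with 1 kb before and after) held 12.9% of the lost regions and 11.5% of the gained ones, near the 14.4% of all regions. The share was 38.8% for regions called in all 4 libraries, 13.0% for 1 control and 1 treated library, and 6.98% for 1 library. The median summit held 8 reads in lost and in gained regions, as in the regions of 1 control and 1 treated library, and 17 reads in regions called in all 4. The median fold was 4.90 for lost, 4.76 for gained and 7.78 for regions called in all 4. Both called libraries reached a −log10 q of 5 in 562 lost (14.2%) and 206 gained (10.0%) regions. A treated peak lay within 500 bp of 921 lost regions (23.3%), and a control peak within 500 bp of 542 gained regions (26.4%), so these calls lay beside stretches that were also called in the other group. Lost regions made up 2.07% (chromosome 21) to 3.54% (chromosome 20) of the regions of a chromosome, and gained regions 1.15% (chromosome 18) to 1.59% (chromosome 20).

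Ranked by the lower −log10 q of their 2 libraries, 9 of the 10 strongest lost regions lay within genes. The first was in ST7L (chr1:112607193-112607466), with folds of 9.79 and 10.7 in the controls. Next were a region 19462 bp from the start of LINC00533 (10.1 and 9.16) and one in MTF1 (9.18 and 11.2), the regulator of metallothionein genes. Further ones were in TIMP2, an inhibitor of matrix metalloproteinases (9.87 and 8.85), ZDHHC14 (8.34 and 8.18), NTN1 (7.65 and 7.94), DHX57 (8.57 and 10.8) and SH3BGRL2 (8.51 and 8.69). No treated library had a peak there, and all 10 stayed lost with equal numbers of peaks. The strongest gained region was in NAV2 (chr11:19374362-19374539), with folds of 9.50 and 9.02 in the treated libraries. It was followed by PDGFD, a growth factor of the PDGF family (8.54 and 8.55), a region 32263 bp from the start of TRH (8.01 and 10.1), ASAP1 (6.87 and 7.07) and ENTREP2 (9.52 and 7.55). The remaining regions were near RASGEF1B (8.01 and 6.81), at the promoter of SLC9C1 (7.34 and 7.74), in APC2 (7.02 and 6.32), in RCOR1, the corepressor that binds LSD1 (8.92 and 7.35), and near APOH (9.38 and 7.35). Both sets of regions are the extremes of a ranking, and their values are a description.

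Among 17065 protein-coding genes with a region in their locus (the gene body extended by 5 kb at both ends), 2241 held a lost region, 1165 a gained one and 289 both. The most lost regions with no gained one, 4 each, were in CNTN4 (959.1 kb), HMCN1 (456.6 kb), IQSEC1 (386.2 kb), PALLD (431.4 kb), VPS13B (864.3 kb) and ZNF516 (138.7 kb). The most gained regions with no lost one, 3 each, were in ABLIM1 (370.3 kb), AGBL1 (951.9 kb), ANKS1B (1250 kb), BCAS3 (715.0 kb), TRIP12 (159.4 kb) and CDC73 (132.8 kb), a subunit of the PAF1 elongation complex. These loci were long and held 8 to 68 regions each, and the part that length plays in the counts was not tested.

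The question posed for this line was whether menin inhibition closed chromatin at MLL1 and menin target genes. Of 328 regions in the loci of 20 targets, 11 were lost (3.35%) and 4 gained (1.22%), beside 2.53% and 1.32% of all regions, and with equal numbers of peaks 10 of 282 were lost and 4 gained. Within 5 kb of a start site alone, 1 of 55 regions was lost and 2 were gained. Both shares over the whole loci lay near the background. The study had itself described several of these loci with its ATAC-Seq data, so that their direction is not independent evidence. For OCI-AML3 it showed reduced peaks in the MYB and TCF4 loci. Lost and gained regions were found in 8 of the 20 loci. Neither kind was found at PBX3, MEF2C, CDK6, SENP6, MYC, EYA1, RUNX1, RUNX2, SATB1, IGF2BP2, BMI1 or CPEB2.

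MEIS1, the homeobox partner of HOXA9, had 16 regions. One was lost 8.93 kb after the start site, with folds of 3.83 and 3.70 in the controls, and another was lost at 42.1 kb, with 4.37 and 4.40. Between them a region at 10.9 kb was gained, with 4.01 and 5.67 in the treated libraries, 157 bp from a peak of a control. The MEIS1 promoter was called in all 4 libraries, with folds of 7.41 and 7.36 in the controls and 5.75 and 8.57 after treatment, and the groups overlapped. A region at 46.2 kb (chr2:66481096-66481499), chosen after its values had been seen, had 10.8 and 11.1 in the controls and 7.50 and 7.66 after treatment. Both controls lay above both treated libraries there, as in 24.5% of all regions called in all 4. Its log2 difference of −0.42 ± 0.24 (SE) did not pass (limma, adjusted p = 0.854).

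TCF4 had 20 regions, of which 3 were lost and 1 gained. A lost region 20.2 kb after a start site had folds of 6.73 and 8.58 in the controls and no treated peak within 33894 bp. The other lost regions lay at alternative start sites, 1 with 5.13 and 4.95 and the other, printed above, with 5.02 and 4.39. The latter lay 25 bp from a peak of a treated library. The gained region, 86.8 kb after a start site, had 5.35 and 6.94 in the treated libraries and lay 328 bp from a control peak. The strongest TCF4 promoter region was open in every library, with 16.5 and 11.9 in the controls and 12.8 and 12.7 after treatment.

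BCL2, which blocks apoptosis at the mitochondrion, had 29 regions. A gained region 1.48 kb after the start site had folds of 3.62 and 5.05. Lost regions at 164.2 kb (5.27 and 5.82 in the controls) and 177.7 kb (4.47 and 5.07) lay 99 and 145 bp from a treated peak. The locus map of BCL2 shows these neighbours as points beside the blue lines. FLT3, a receptor tyrosine kinase of progenitors, lost a region at 68.9 kb (4.23 and 6.40), and its only region called in all 4 libraries was the promoter. LAMP5, a lysosomal membrane protein gene, lost a region at 9.14 kb (7.13 and 5.94). JMJD1C, a gene of the histone demethylase family, lost a region (5.51 and 5.30) 12.6 kb after an internal start site. It lay far from the start of the JMJD1C gene model. ZEB2 lost a region 4.34 kb before its start site (4.11 and 4.22), at the promoter of LINC02993. In MYB, which encodes a transcription factor that progenitors need, a region 2.67 kb after the start site was gained, with 5.05 and 3.31 in the treated libraries.

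**Figure D2:**
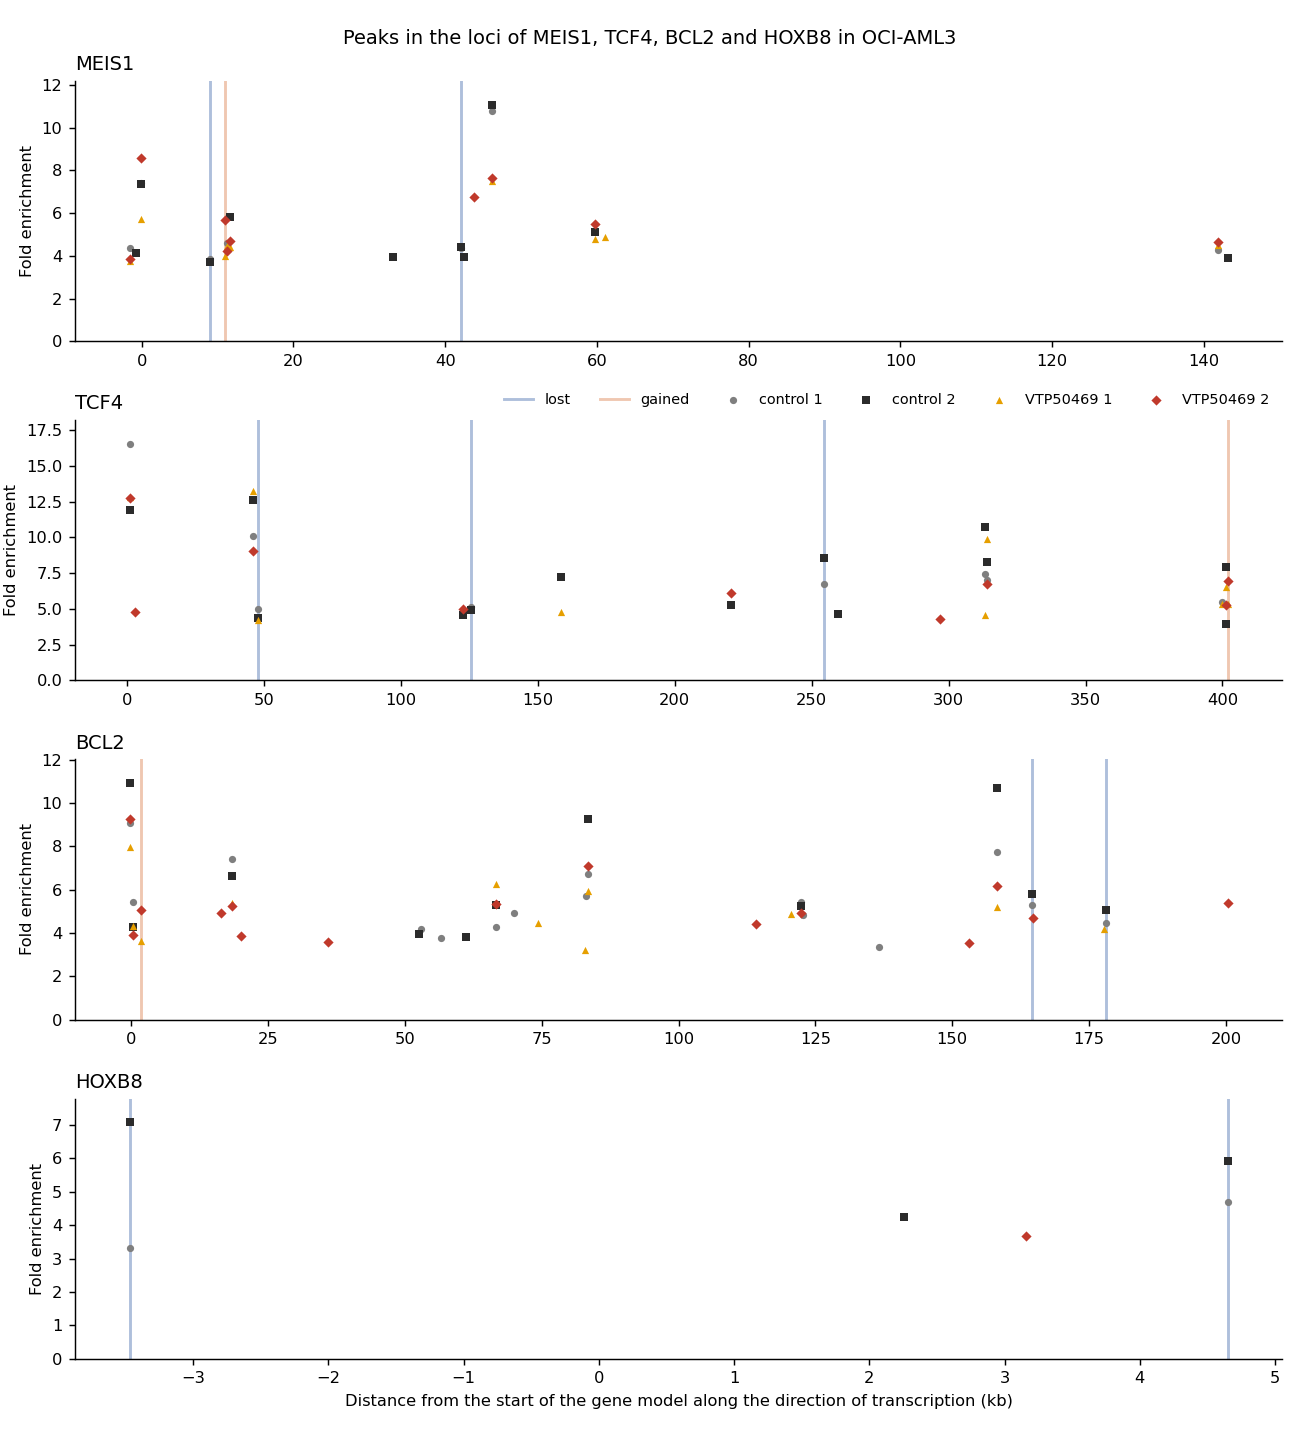
Fold enrichment of each peak (y axis) against its distance from the gene start in kb (x axis) in the 4 OCI-AML3 libraries, with lost regions as blue lines and gained regions as orange lines. The strongest peaks of MEIS1, TCF4 and BCL2 were called in all 4 libraries, and lost and gained regions had folds from 3.32 to 8.58.

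In the HOXA cluster, whose genes pattern the embryo and maintain leukaemic progenitors, 2 of 27 regions were lost and 2 gained, or 7.41% each, beside 2.53% and 1.32% of all regions. Without the peaks under a −log10 q of 5 none was lost and 2 were gained, and with summits within 150 bp 1 was lost. The lost regions lay at the HOXA2 promoter, also inside the locus of HOXA3 (folds of 3.99 and 5.55 in the controls), and in the HOTTIP gene beside HOXA13 (3.20 and 4.57). The gained regions lay in the HOXA3 gene body, 3861 bp before the start of HOXA4 (6.42 and 4.03 in the treated libraries) and 4.09 kb after the HOXA9 start site (3.81 and 3.92), in the loci of HOXA9 and HOXA7. The latter was 113 bp from a peak of a control. The HOXA9 promoter had 4.84 and 4.68 in the controls and 5.77 and 3.76 after treatment, so the treated libraries lay on either side of the controls. In the HOXB cluster 3 of 23 regions (13.0%) were lost and none gained, beside the same 2.53% and 1.32% of all regions. They lay at the HOXB7 promoter (4.69 and 5.91), 3.47 kb before the HOXB8 start (3.32 and 7.08), also in the locus of HOXB9, and in HOXB9 (4.20 and 5.05). With equal numbers of peaks 2 were lost, and 0 once peaks under a −log10 q of 5 were left out or once the 33702 strongest of each library were kept. Only 1 of 10 HOXB promoters was called in all 4 libraries, against 7 of 11 HOXA promoters.

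With all peaks, differentiation genes held lost but no gained regions. Of 101 regions in the loci of 22 monocyte and granulocyte genes 4 were lost (3.96%) and 0 gained, and of 15 regions at 5 primary granule genes 2 were lost (13.3%) and 0 gained, beside 2.53% and 1.32% of all regions. The balance turned with strong peaks: once peaks under a −log10 q of 5 were left out, or once the 33702 strongest of each library were kept, the monocyte and granulocyte genes had 1 lost and 2 gained regions and the granule genes 1 lost. The S100A9 promoter had 5.51 and 4.34 in the controls and no peak after treatment. CSF1R, the receptor for M-CSF, lost a region at 10.3 kb (5.38 and 5.95), CSF3R, the receptor for G-CSF, one 3.31 kb before its start (4.67 and 6.65), and IRF8, a regulator of monocyte fate, one in its gene body (3.36 and 4.78) that was 74 bp from a treated peak. The lost regions of the granule proteases were at the ELANE promoter (3.17 and 6.87), also in the locus of PRTN3, and beside AZU1 in PLPPR3 (4.04 and 4.88). Gained regions were 0 of 101 and 0 of 15, which allows a share of gained regions of up to 2.97% and 20.0% (3 regions of the total, counting error only), both above the 1.32% of all regions.

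Stem and progenitor genes had 4 lost (3.08%) and 2 gained (1.54%) of 130 regions, near the 2.53% and 1.32% of all regions. Those lost were beyond KIT (5.92 and 7.30), in MSI2 (4.84 and 4.86), near LMO2 (5.27 and 4.62) and at a TAL1 promoter (4.49 and 3.55), the last 3 bp from a treated peak. Those gained were the MECOM promoter, with 5.56 and 5.26, and a region 3085 bp before MN1, with 7.26 and 4.56. Menin, MLL1 and elongation complex genes had 5 lost (4.17%) and 1 gained (0.83%) of 120, and 1 lost and 1 gained without the peaks under a −log10 q of 5. The lost regions were in MLLT1 (5.62 and 8.37), a reader of histone acylation, in AFF1 (4.28 and 3.95) and beyond it (4.90 and 7.15), and in ELL (3.98 and 3.21, and 4.88 and 5.94). Those within MLLT1 and AFF1 lay 28 and 205 bp from a treated peak. AFF4, the scaffold of the super elongation complex, had the gained one (8.33 and 4.29). No region at MEN1 or KMT2A was lost or gained.

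The study also reported declining ATAC-Seq peaks at RNA polymerase II transcription genes in OCI-AML3. The genes of general transcription listed here had 2 of 70 regions lost (2.86%, near the 2.53% of all regions) and 0 gained. These lay at MED13, 0.102 kb from the start site (5.43 and 6.61 in the controls), and in MED24 (4.79 and 5.14), both genes of the Mediator complex. They were 278 bp and 58 bp from a treated peak. All 20 promoters of the list were called in all 4 libraries. Of 44 regions at nucleolar genes 1 was lost, beyond DHX9, and 1 gained (2.27% each, beside 2.53% and 1.32% of all regions). The gained one lay at the promoter of POLR1B, a subunit of RNA polymerase I (3.44 and 4.52), 176 bp from a control peak. The NPM1 promoter was open throughout, with 10.4 and 10.4 in the controls and 10.1 and 9.20 after treatment. Of 54 regions at chromatin regulators 2 were lost (3.70%) and 1 gained (1.85%), beside the same 2.53% and 1.32% of all regions. Those lost were in EZH2 (4.83 and 4.58), the methyltransferase of PRC2, and beyond its partner EED (5.05 and 4.59). The gained region was in KAT6B (5.95 and 4.90), 111 bp from a control peak. At beta-catenin target genes the 3 lost regions of 65 (4.62%) were all in TCF7L2, and CCND1 had the gained one (1.54%). The region in CCND1 lay 57 bp from a control peak. Among 41 regions at AP-1 genes 1 was gained (2.44%), 0.714 kb after the JUN start site (3.37 and 3.62) and 189 bp from a control peak. The strongest JUN promoter region was called in all 4 libraries, with 12.6 and 10.4 in the controls and 8.98 and 9.05 after treatment. Interferon and TNF response genes had 0 lost and 0 gained of 33 and of 36 regions.

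The lists with no link to menin held such regions too. Housekeeping genes had 1 lost (PPIA, 2.38%) and 2 gained (GAPDH and EEF1A1, 4.76%) of 42 regions, beside 2.53% and 1.32% of all regions. Myeloid identity genes had 1 of each of 79 (1.27%), both in PTPRC. B cell marker genes had 2 of each of 77 (2.60%), all in EBF1, a regulator of B cell fate. T cell and erythroid marker genes had none of 18 and of 13. In all, 43 lost and 18 gained regions lay in the loci of 49 listed genes, 12 of them at a promoter. Of these 61 regions 20 had a peak of the other group within 500 bp, among them that in EEF1A1 and some of those in EBF1.

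**Figure D3:**
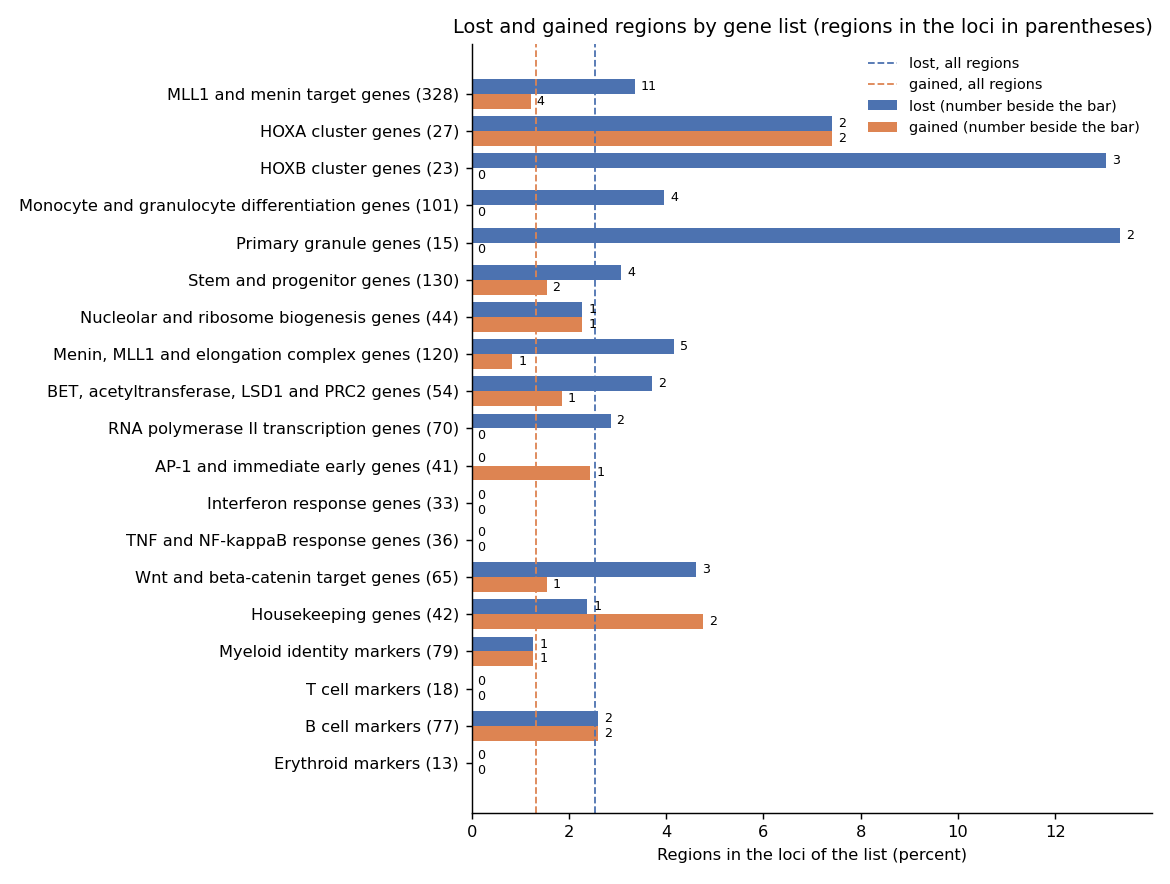
Percent of the regions in the loci of each gene list (x axis) that were lost (blue) or gained (orange), with the number of regions beside each bar, and dashed lines at the 2.53% and 1.32% of all regions. The high bars, HOXB and primary granule genes, stand for 3 of 23 and 2 of 15 regions.

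The strength of shared peaks was compared in the 30339 regions called in all 4 libraries, by limma on the log2 fold of the strongest peak after quantile normalisation. None passed an adjusted p of 0.05 (0%, smallest adjusted p 0.772). Without control 1 a region nearest to SHCBP1 (chr16:46390491-46390826) passed (limma, adjusted p = 0.0464), in a fit where the lone control is assumed to vary like the treated pair, with folds of 14.1 and 7.26 in the controls and 23.5 and 19.6 after treatment. Without adjustment 884 regions (2.91%) were lower and 923 (3.04%) higher at p under 0.05, with a median SE of 0.25 on the log2 scale. Differences lay between −0.47 and 0.47 in the middle 90% of regions, and 17 regions were lower and 25 higher by at least 1. In the folds as deposited both controls lay above both treated libraries in 24.5% of regions and below them in 10.3%. Without normalisation the median difference over all regions was −0.09 and the counts were 1345 lower and 401 higher, also with none past the threshold, so the balance of directions depends on the scaling.

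**Figure D4:**
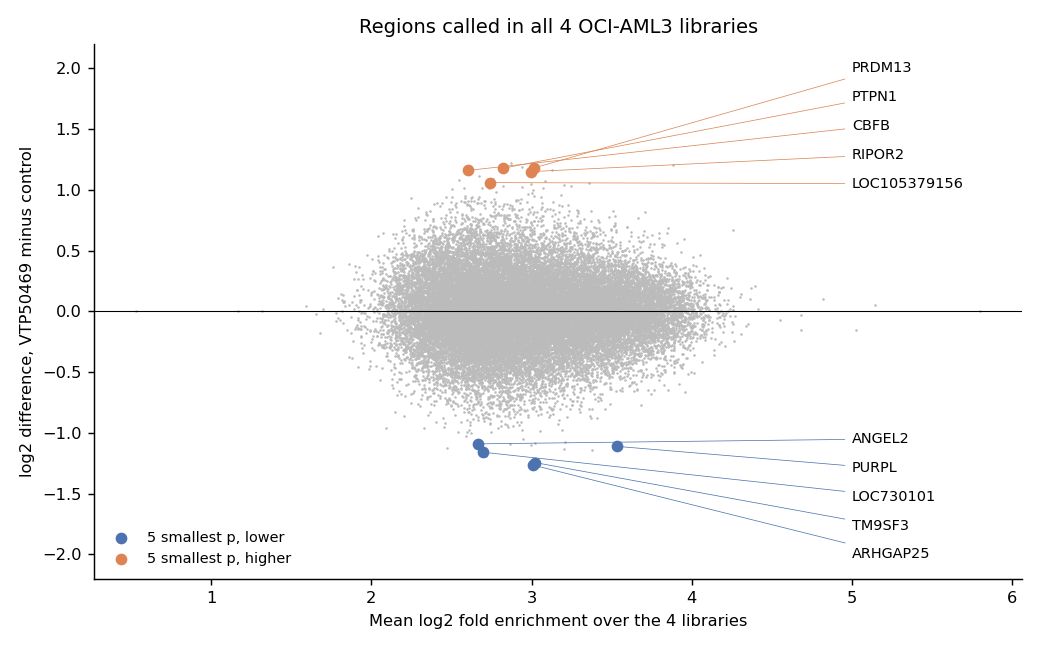
log2 difference of fold enrichment, VTP50469 minus control (y axis), against the mean log2 fold of the 4 libraries (x axis) for 30339 regions, with the 5 lowest p-values in each direction coloured. The coloured regions lie from −1.26 to −1.09 and from 1.06 to 1.18, and none passed an adjusted p of 0.05.

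The smallest p among lower regions was at TM9SF3 (chr10:96569971-96570198) in the gene body, where the folds were 12.9 and 12.9 in the controls and 4.76 and 5.51 after treatment. The log2 difference was −1.24 ± 0.24 (limma, adjusted p = 0.772). In ARHGAP25, a GTPase-activating protein of leukocytes, the controls had 11.8 and 13.9 and the treated libraries 5.95 and 4.29. A region nearest to PURPL had 15.5 and 19.8 against 7.92 and 7.35, one nearest to LOC730101 had 8.83 and 11.2 against 4.89 and 3.64, and one in ANGEL2 had 8.57 and 10.6 against 4.16 and 4.29. Among higher regions the first lay 11031 bp before the start of CBFB, which encodes the partner of RUNX1, with 4.40 and 3.94 in the controls and 8.55 and 9.17 after treatment (log2 difference 1.16 ± 0.24, limma, adjusted p = 0.772). The next were nearest to RIPOR2 (4.49 and 6.91 against 10.6 and 12.5), PRDM13 (4.40 and 7.07 against 10.5 and 13.1), LOC105379156 (4.90 and 4.62 against 9.63 and 9.19) and PTPN1 (3.67 and 6.50 against 10.1 and 10.3). These 10 regions were picked for the smallest p, so the lack of overlap between their groups comes with the choice and is no support. Their summits held 5 to 38 reads.

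At MLL1 and menin targets 87 regions were called in all 4 libraries, with a median log2 difference of −0.01 beside 0.00 over all regions, and 3 were lower and 3 higher without adjustment. Controls lay above both treated libraries in 20 of the 87 (23.0%) and below them in 9 (10.3%), near the 24.5% and 10.3% of all regions. The negative differences were in RUNX1 (9.55 and 10.4 in the controls, 6.75 and 5.62 after treatment), BCL2 (7.75 and 10.7, 5.18 and 6.19) and CPEB2 (6.65 and 9.90, 5.95 and 4.29). The positive ones were in JMJD1C (4.28 and 5.28, 6.93 and 7.35), MEF2C (6.87 and 12.5, 13.8 and 14.4) and CDK6 (8.58 and 7.89, 11.6 and 10.8). The smallest adjusted p in the list was 0.782 (limma). In the MYB locus the region at 14.1 kb had 8.90 and 7.90 in the controls and 5.73 and 5.73 after treatment, and the promoter had 6.26 and 8.55 against 9.33 and 7.22.

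Other listed genes gave as few regions at an unadjusted p under 0.05. Near MPO, which encodes myeloperoxidase, a region 3944 bp before the start had 8.33 and 9.94 in the controls and 4.10 and 5.34 after treatment (log2 difference −0.88 ± 0.25, limma, adjusted p = 0.772). IRF8 had 12.2 and 11.6 against 8.03 and 6.62 in its gene body, MNDA 6.16 and 7.85 against 4.30 and 4.60, and ITGAX, the gene of CD11c, 5.14 and 4.47 against 7.94 and 7.55. A promoter region of AFF1 had 9.11 and 12.9 against 6.21 and 7.03, one of TAF7 7.35 and 9.57 against 4.36 and 5.51, and one of the interferon target OAS1 7.94 and 8.07 against 10.7 and 11.3. Another promoter region of TAF7 had 5.51 and 7.33 against 9.28 and 6.74, so the groups overlapped there. UBTF had 8.16 and 15.5 against 8.46 and 4.69, so the groups overlapped, and a region near BRD2 5.43 and 7.48 against 3.78 and 3.99. Among B cell genes, regions in PAX5 and EBF1 had negative differences. In the locus of the T cell gene CD3G, the promoter of its neighbour UBE4A had 4.90 and 7.55 against 17.8 and 8.85.

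The promoters of 22 genes chosen for their part in menin biology and differentiation were read directly. Of these, 18 were called in all 4 libraries, 8 with a negative and 10 with a positive log2 difference after quantile normalisation. In the folds as deposited the treated mean was lower in 11 and higher in 7, so the split depends on the scaling, and none passed (limma, smallest adjusted p 0.865). MEF2C, a regulator of myeloid fate, had the most negative difference, −0.44 ± 0.26, with 11.0 and 16.9 in the controls and 11.1 and 7.93 after treatment. That MEF2C region lay at a start site about 76.8 kb after the start of the gene model. MNDA, a nuclear antigen of myeloid cells, had the most positive, 0.43 ± 0.26, with 9.35 and 13.4 against 16.8 and 11.8. Both pairs of groups overlapped. FLT3 had 9.28 and 12.1 in the controls and 8.31 and 7.71 after treatment, and LAMP5 7.20 and 7.26 against 6.09 and 5.16. In these, and narrowly in NPM1, both controls lay above both treated libraries before normalisation. That was 3 of the 18 promoters, beside 24.5% of all 30339 regions called in all 4. The log2 differences were −0.30 ± 0.24 for FLT3 and −0.27 ± 0.24 for LAMP5.

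For CDK6, the kinase of the G1 phase, the promoter had 5.87 and 9.36 in the controls and 5.73 and 6.84 after treatment. SENP6 had 10.7 and 11.0 against 11.1 and 8.61, JMJD1C 10.6 and 12.6 against 12.9 and 11.7, and MYC 5.76 and 7.63 against 7.34 and 7.11. That JMJD1C region lay at a start site about 252.7 kb after the start of the gene model. The JMJD1C region 0.404 kb after the start of the gene model had 7.56 and 7.82 against 8.60 and 8.43. Both treated libraries lay above both controls there, as in 10.3% of the 30339 regions compared. Its log2 difference of 0.25 ± 0.24 did not pass (limma, adjusted p = 0.923). For the lysozyme gene LYZ the values were 11.0 and 5.28 against 5.35 and 5.91, with control 1 alone apart, and for LY96 4.52 and 6.07 against 5.94 and 5.54. MEN1 had 13.3 and 14.0 against 14.3 and 14.0, and KMT2A 8.13 and 9.86 against 9.07 and 8.48. The BCL2 promoter had 9.06 and 10.9 against 7.98 and 9.28. At the start site of PBX3 in the promoter table a peak was called in control 2 only, and a region about 0.962 kb before the start of the gene model had 9.90 and 11.2 against 11.1 and 7.77. ITGAM, the gene of CD11b, had a promoter peak in 1 control (10.6) and 1 treated library (7.73), CD86 likewise (3.30 and 5.37), and ITGAX had none.

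**Figure D5:**
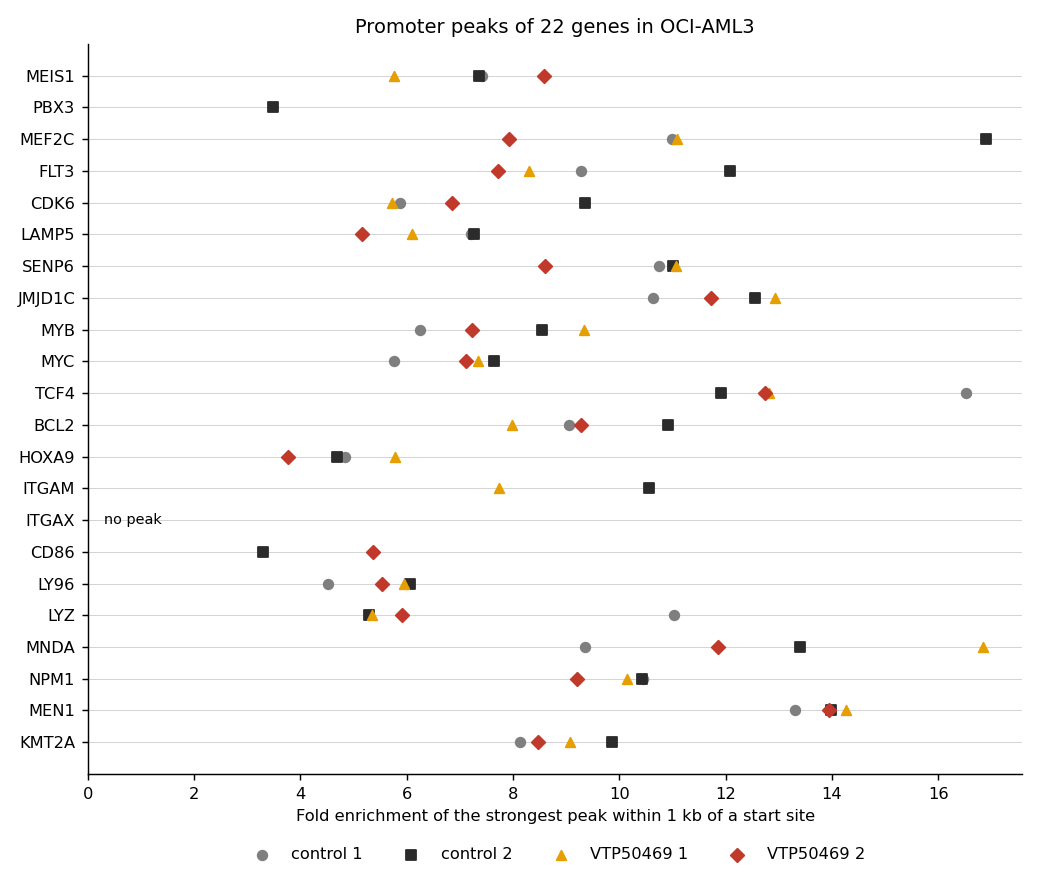
Fold enrichment of the strongest peak within 1 kb of a start site (x axis) for 22 genes (rows) in the 4 OCI-AML3 libraries. Controls (grey, black) and treated libraries (orange, red) are interleaved at most promoters, as at MEIS1, where they read 7.41, 7.36, 5.75 and 8.57.

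The sequence windows printed above belong to 33725 windows on chromosomes 1 to 22, of which 184 overlapped a lost and 76 a gained region. Windows with a lost region had a median GC content of 66.3%, as had the 12843 windows open in all 4 libraries. The median was 58.0% for windows over a gained region, beside 58.7% over all windows. Letters of known binding motifs were searched on both strands. GGGGCGG, bound by SP1, was in 52.2% of windows with a lost region, 27.6% of those with a gained region, 52.8% of those open throughout and 30.8% of all. TGANTCA, bound by AP-1, was in 9.24%, 17.1% (13 of 76), 4.27% and 7.67% in the same order, and TAACNG, bound by MYB, in 13.0%, 25.0% (19 of 76), 16.6% and 20.6%. GAGGAAGT, bound by PU.1, was in 7 windows over a lost region (3.80%) and 1 over a gained region (1.32%), beside 2.58% of all, and the IRF motif in 5 and 2 (2.72% and 2.63%, beside 3.57%). TGTGGT (RUNX) was in 13.0% and 10.5%, beside 13.1% of all. TTGCNNAA (CEBP) was in 11.4% and 2.63%, beside 10.5%, TGACAG (MEIS) in 13.6% and 15.8%, beside 15.8%, and TGATTNAT (HOX-PBX) in 2.72% and 3.95%, beside 2.83%. The windows also differed in GC content, whose part in these shares was not tested, and a match is not a bound site. Inside the capitals, the RUNX letters lay 103 bases before the start site in S100A9, 246 in MECOM and 147 in LINC02725, and thus in a lost and in both gained windows. The SP1 letters lay 131 bases before it in S100A9 and 36 in SEMA4B. MECOM also held the MEIS letters 46 bases and the CCAAT letters of NF-Y 168 bases before it, and LINC02725 the AP-1 letters at 178 and 72 bases before it. The capitals of TCF4 held none of the 14 motifs searched.

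OCI-AML3 was then set against MOLM13 and MV4-11, which carry rearranged MLL1 and were given the same dose for the same time. A peak lay over 67.9% of the lost regions in MOLM13 and over 77.4% in MV4-11, near the 66.3% and 74.2% of the regions of 1 control and 1 treated OCI-AML3 library. Over all regions it was 46.2% and 51.4%. Few had the same call there: 52 lost regions of OCI-AML3 (1.31%) were also lost in MOLM13 and 73 (1.84%) in MV4-11, where the regions of 1 OCI-AML3 control and 1 treated library gave 1.24% and 1.81%. Of the gained regions 67 (3.26%) were also gained in MOLM13 and 34 (1.65%) in MV4-11, beside 3.52% and 1.38%. The same call in all 3 lines was made at 1 region, gained in the gene body of PARD3, a polarity protein gene, with OCI-AML3 folds of 5.35 and 4.65.

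Over 22845 regions called in all 12 libraries, the shift of OCI-AML3 was compared with the mean shift of both other lines by limma. No region passed (0%, smallest adjusted p 0.440), and 793 (3.47%) were lower and 798 (3.49%) higher without adjustment. The first was nearest to LINC01301, with OCI-AML3 folds of 3.79 and 4.17 in the controls and 7.49 and 6.54 after treatment, where MV4-11 had 9.09 and 11.2 against 5.66 and 5.30 and MOLM13 6.98 and 8.61 against 8.47 and 7.09 (difference of log2 shifts 1.46 ± 0.24, limma, adjusted p = 0.440). ARHGAP25, named above, had 11.8 and 13.9 against 5.95 and 5.51 in OCI-AML3 over the wider merged region, and MOLM13 had 8.94 and 10.1 against 12.7 and 15.0 and MV4-11 12.9 and 16.8 against 15.0 and 15.4 (−1.26 ± 0.22). In PDLIM5 OCI-AML3 had 9.50 and 8.34 against 4.16 and 4.90, MOLM13 10.3 and 8.56 against 17.0 and 19.0, and MV4-11 11.8 and 15.6 against 19.5 and 14.7. The regions nearest to CCKAR (5.07 and 5.68 against 9.11 and 8.39) and in STX6 (5.42 and 6.75 against 11.5 and 10.2) had positive shifts in OCI-AML3, and in MOLM13 they had 9.49 and 8.51 against 6.91 and 7.07, and 13.1 and 12.8 against 10.0 and 8.05. MV4-11 had 8.44 and 10.7 against 7.54 and 7.36 at the former, and 13.5 and 13.8 against 11.2 and 14.3 at the latter. At 4 of these 5 regions the groups of 1 of the other lines overlapped, the exception being that nearest to CCKAR. These 5 regions were picked for the smallest p between lines, so their differing shifts come with the choice and are no support. The share of such overlap over all regions is not given here.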

How the data were processed

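Bulk ATAC-Seq peak lists of 4 OCI-AML3 samples, and for comparison those of 8 MOLM13 and MV4-11 samples, were used, with groups and replicate numbers taken from the sample titles. Per the labels, MACS2 2.1.0 called the peaks on hg38. The submitters' notes further name Bowtie 1.1.2, Trimmomatic 0.33, deepTools and bcl2fastq 2.17, and the supplementary methods name another aligner. The peak threshold, read shift and handling of duplicates are not given in the sources used here. Peaks were called in each library separately. Per peak, the deposited score is derived from the q-value, the deposited ratio is the fold enrichment over the local background, and the deposited −log10 p-value and −log10 q-value are those of the summit. The last deposited column is the summit offset. No value was normalised between libraries by the authors.

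Total read numbers are not in the lists. Reads over the summit were recovered from fold and −log10 p (tolerance 0.001) for at least 99.991% of the peaks of each OCI-AML3 library. Since a peak needed 4 or 5 reads, a region without a peak need not be closed. Reads are not independent molecules, and intervals cover counting error only. Overlapping peaks (1 bp) were merged, and gene positions came from RefSeq on GRCh38.p14, with strands for 5258 genes from GENCODE. Fold was tested with limma 3.58.1 (two-sided, Benjamini-Hochberg) in R 4.3.3, and the code was tested on simulated data. Library measures were compared by exact permutation. The members and the 19 gene lists were chosen with earlier results of these data known. Named genes were the listed genes with a lost or gained region, the 10 strongest lost and gained regions, the 5 smallest p-values in each direction and between lines, the genes with most lost or gained regions, and the promoters of 22 genes. The values of some regions that the rule for named regions picks are not reported here.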

Additional observations from a re-analysis of the deposited data

Results flagged for a closer look

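At some regions the call in OCI-AML3 was opposite to that in another line, in every library of both. Of the lost regions of OCI-AML3, 123 were gained in MOLM13 and 49 in MV4-11, and of its gained regions 28 were lost in MOLM13 and 42 in MV4-11. The difference was not tested at any of these regions. The former were 3.11% and 1.24% of the lost regions, where 3.52% and 1.38% of the OCI-AML3 regions with a peak in 1 library of each arm were gained in those lines. The latter were 2.04% of the gained regions in MV4-11, where 1.81% of those other regions were lost, and in MOLM13 the shares were likewise close. Both other lines went the opposite way at 2 regions, in METAP1D and LINC00423, which were gained in OCI-AML3 with folds of 4.71 and 4.36 and of 4.76 and 4.90.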

How the results depend on the processing

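With peaks of a −log10 q of at least 5, 2236 regions were lost and 1039 gained. With the 33702 strongest peaks of each library, a setting added after the data had been seen, 1592 were lost and 1367 gained (log2 ratio 0.22), 7 of the lost ones at MLL1 and menin targets. Leaving out 1 library gave 6745 to 40332 lost and 3437 to 26118 gained regions, and a log2 ratio of lost to gained from −1.95 to 3.55, reversed without treated library 1 (−1.36) or 2 (−1.95), since the group left with 1 library meets the call more easily. At MLL1 and menin targets this gave 23 to 73 lost and 10 to 43 gained regions. Counting only 5 kb around start sites gave 1 lost and 2 gained there. The merging by summits and chromosome X moved these counts by less than 1.5 times.

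For fold enrichment without normalisation, 1345 regions were lower and 401 higher before adjustment. The number past the threshold was 0 to 1 when 1 library was left out (1 without control 1), with 870 to 1245 lower and 922 to 1161 higher before adjustment, and 0 under the other alternatives run. Between lines it was 0 under each alternative run, with 735 to 960 lower and 850 to 929 higher when 1 library was left out and 761 and 785 with normal scores. Nothing in the titles says whether same-numbered samples were paired. Deviations of same-numbered libraries correlated at 0.0101 over regions. This shows no shared shift in fold, but it cannot tell whether such samples were handled together. With a replicate block 1036 regions were lower and 1046 higher, none past the threshold (limma, smallest adjusted p 0.208), and between lines 817 and 844. Of 351 values of 28 named regions under alternatives, 330 kept the direction and 0 passed. No peak had fewer than 4 summit reads in control 2 or 5 in the other libraries, and 2 libraries a group limit every test.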

Other observations

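On chromosome X, which the comparisons did not use, the controls had 1335 and 1975 peaks and the treated libraries 1389 and 1246, with 119 regions lost and 35 gained.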
